A study of Mus musculus with 9 samples.

Results

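A set of 10 genes of the glycine cleavage system and of serine-linked one-carbon metabolism were followed in mouse gastrocnemius, the large calf muscle. They were selected on the measured level of Gcsh, the carrier protein of glycine cleavage, which was low in both groups of dystrophic mice, and the other 9 were added as its pathway partners. The Gcsh values against wildtype chose the genes, so they are given as a description with no test. Of the 10 genes, 9 had a row among the 15593 gene symbols of the deposited table. Gcsh, Amt, Dld, Shmt1, Shmt2, Mthfd2, Phgdh and Psat1 were tested, as part of 15372 tested symbols. Gldc was listed at 0 in 2 of the 3 groups and entered no test, and Mthfd1l was not analysed here.

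The glycine cleavage system is a mitochondrial enzyme complex that breaks glycine into carbon dioxide, ammonia and a carbon unit held by tetrahydrofolate. Serine hydroxymethyltransferases move a carbon unit from serine to tetrahydrofolate and leave glycine, so serine and glycine are both donors to the folate pool. The cleavage system is best known for its activity in liver, kidney and brain.

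The study, by its title, examined androgen receptor agonists in models of Duchenne muscular dystrophy. The 3 groups, of 3 libraries each, were wildtype mice that received vehicle, mdx mice that received vehicle, and mdx mice that received GTx-026, injected under the skin at 10 mg/kg. The mdx mouse carries a mutation in Dmd, the gene for dystrophin, and is a model of the disease. All 9 libraries carry the strain label C57BL/6, the mdx libraries included, and the labels state neither age nor sex. As no label ties a library to an animal, a p-value reflects how far these libraries vary, which may be technical.

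The listed reads of a library, estimated from the deposited values, ran from 25.1 M to 38.0 M. A level is given in CPM (the reads of a gene per M, or mega, listed reads, rescaled between libraries), and a difference as a log2 fold change of CPM + 1 from limma with Benjamini-Hochberg adjustment over all tested genes. A gene was called at an adjusted p under 0.05. The 8 skeletal fibre markers summed to 164389, 198670 and 205666 CPM in wildtype, 116234, 159694 and 153597 in mdx vehicle, and 208328, 144089 and 122366 in mdx GTx-026, so that every mdx vehicle library lay below every wildtype library. None of the 4 hepatocyte markers was tested. Dmd, the gene mutated in mdx, was at 50.8 ± 9.30 CPM (SD, n = 3) in wildtype, 18.3 ± 5.97 in mdx vehicle and 16.6 ± 2.07 in mdx GTx-026. The mdx vehicle library 1 stood apart: it had the lowest summed slow-fibre markers, at 399.9 CPM against 1033 to 14920 in the others, and needed the largest scaling factor, 1.30. Summed macrophage markers (11 of 12 tested) were 54.0 to 144.7 CPM in wildtype, 122.5 to 428.2 in mdx vehicle and 319.1 to 477 in mdx GTx-026. Summed fibroblast markers (6 of 6) were 478.7 to 795.9, 712.1 to 1780 and 1123 to 1902 CPM in the same order. The part of these cell types in the results below was not tested, and in whole muscle fewer cells of a type and less RNA per cell cannot be told apart.

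Gcsh encodes the H protein, the lipoyl-carrying shuttle that takes the aminomethyl group of glycine from one enzyme of the complex to the next. The gene lies on chr8:116981810-116993537, minus strand (GENCODE M21, GRCm38), and Shmt1, the member called in mdx GTx-026 against wildtype, lies on chr11:60788104-60811718, minus strand. The bases before the RefSeq start of these 2 genes (GRCm38.p6) are shown because these members had every mdx library below every wildtype library. Capitals mark GC boxes, GGGCGG on either strand. The Gcsh stretch is chr8:116993538-116993748 and the Shmt1 stretch chr11:60811266-60811515, both read from the minus strand. The Gcsh stretch ends at the GENCODE start of the gene, and the Shmt1 stretch lies inside the GENCODE span of Shmt1, where a transcript begins farther out.
Gcsh: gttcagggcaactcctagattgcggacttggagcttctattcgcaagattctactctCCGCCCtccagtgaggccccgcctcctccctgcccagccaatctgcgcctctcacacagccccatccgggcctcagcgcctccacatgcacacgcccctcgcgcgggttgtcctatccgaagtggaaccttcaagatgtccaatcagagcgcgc
Shmt1: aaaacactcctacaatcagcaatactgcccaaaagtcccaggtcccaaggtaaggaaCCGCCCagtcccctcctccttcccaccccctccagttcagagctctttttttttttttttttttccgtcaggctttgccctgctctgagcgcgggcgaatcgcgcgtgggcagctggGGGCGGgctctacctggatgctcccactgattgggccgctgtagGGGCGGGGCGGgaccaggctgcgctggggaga
In the 250 bases before the start, the GC box matched 2 times for Gcsh, and 1 of these lies in the untranslated first exon of GENCODE and is not printed. It matched 4 times for Shmt1, with the last 2 matches overlapping. A GC box was found in 32.7% of 32851 RefSeq promoter windows of this length. The searched ATF4 element TGATGNAA (3.45% of windows), the E-box CACGTG (6.02%) and the androgen half-site AGAACA (16.1%) had no match before either gene. A match is a description of the letters, and their absence says only that they are not in this window.

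Gcsh was at 36.4, 41.2 and 43.9 CPM in the wildtype vehicle libraries 1 to 3. It was at 3.31, 6.87 and 6.03 CPM in mdx vehicle and at 6.65, 5.51 and 8.31 CPM in mdx GTx-026. Every mdx library, treated or not, lay below every wildtype library, and the 2 mdx groups overlapped. In estimated reads these levels stand for 1050 to 1206 reads per wildtype library and 108 to 303 per mdx library. The wildtype mean of 40.5 ± 3.80 CPM was 7.49 times the mdx vehicle mean of 5.40 ± 1.86 and 5.93 times the mdx GTx-026 mean of 6.82 ± 1.41 (SD, n = 3). Both ratios use the same wildtype libraries. The log2 fold change was -2.74 (SE 0.24) in mdx vehicle and -2.42 (SE 0.24) in mdx GTx-026. Leaving out any library kept it between -2.91 and -2.48 in the former and between -2.55 and -2.29 in the latter. Gcsh has a single record in the table, and 1.24% of the 50-base words of its transcripts occur in another annotated gene, Gm37201, which has no row.

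The difference between the mdx groups was not used to choose Gcsh and was tested. With GTx-026 the log2 fold change against mdx vehicle was 0.32 (SE 0.24, 95% interval -0.21 to 0.85, unadjusted p = 0.209, adjusted p = 0.9996), so no difference was called. Without mdx vehicle library 1, in which Gcsh was lowest, it was 0.06.

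**Figure D1:**
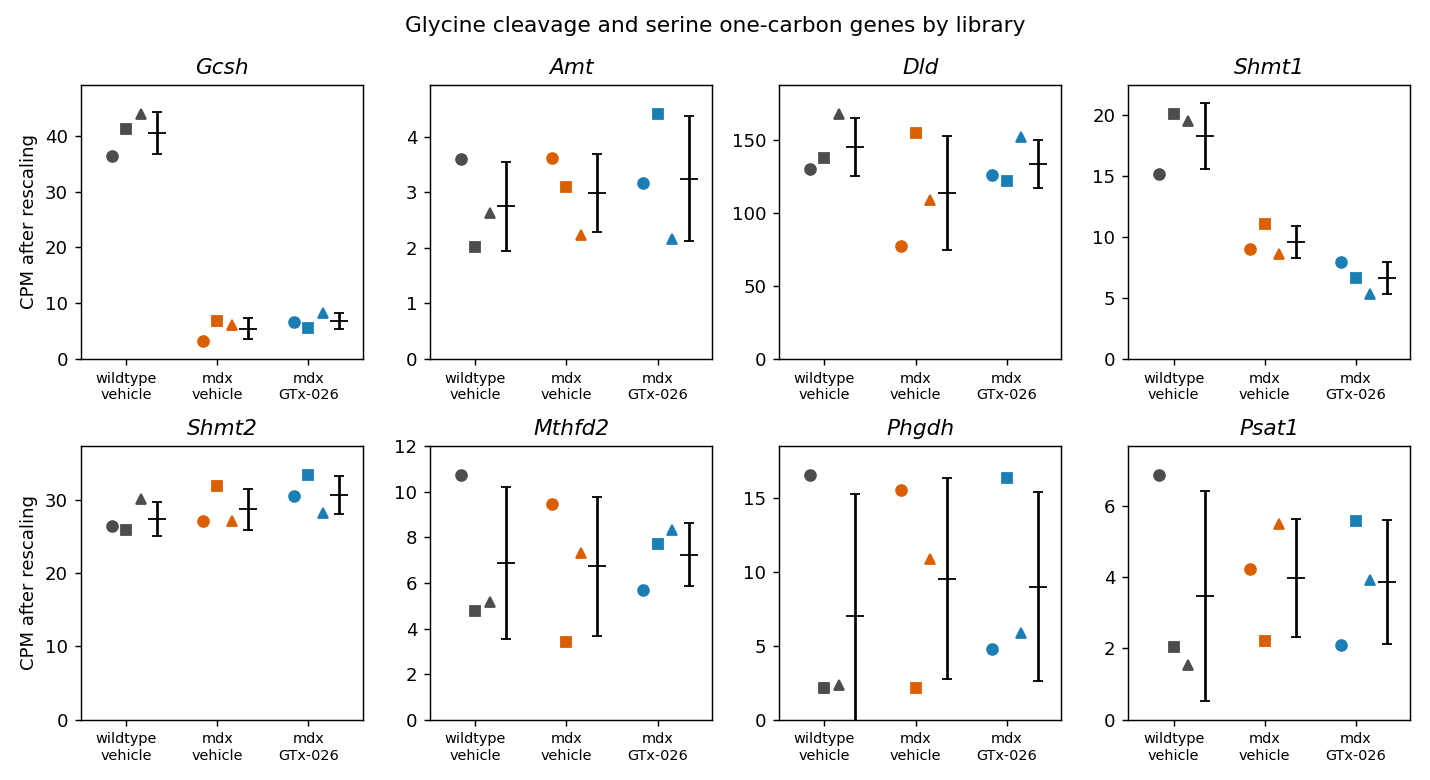
CPM after rescaling of the 8 tested genes in the 9 libraries; circles, squares and triangles are libraries 1, 2 and 3 of a group, bars show mean ± SD (n = 3), each axis starts at 0, and the lower bar of Phgdh in wildtype runs past 0. All 6 mdx libraries lie at 8.31 CPM or less for Gcsh and at 11.1 or less for Shmt1, and the wildtype libraries at 36.4 or more and 15.1 or more.

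Of the other 3 proteins of glycine cleavage, Amt and Dld were tested and not called in any comparison, and Gldc was not tested. Gldc encodes the P protein, the decarboxylase that starts the reaction. Its single record was listed at 0 in all 6 vehicle libraries and had deposited signals of 17.5, 17.3 and 17.9 in mdx GTx-026, an estimated 26, 20 and 24 reads. The smallest signal above 0 in the table was 10, and whole groups were listed at 0 together, so a 0 is no proof of absence and no fold is given. The authors' deposited table gives p = 0.00011 for Gldc in GTx-026 against either vehicle group. Every vehicle value is a listed 0 with no spread, so this p-value cannot measure a difference in level. Gldc was 1 of 39 records listed above 0 in mdx GTx-026 alone.

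Amt encodes the T protein, the aminomethyltransferase that hands the carbon unit to tetrahydrofolate. Its level was 3.60, 2.02 and 2.62 CPM in wildtype, 3.61, 3.10 and 2.24 in mdx vehicle, and 3.16, 4.4 and 2.17 in mdx GTx-026. All 3 groups overlapped. The log2 fold change was 0.10 (SE 0.24, adjusted p = 0.884) in mdx vehicle against wildtype and 0.17 (SE 0.24, adjusted p = 0.874) in mdx GTx-026 against wildtype.

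Dld encodes the L protein, the dihydrolipoamide dehydrogenase that glycine cleavage shares with the pyruvate, oxoglutarate and branched-chain oxoacid dehydrogenases. Its level was 129.9, 137.1 and 167.3 CPM in wildtype. The mdx vehicle libraries were at 77.6, 154.8 and 108.6 CPM and the mdx GTx-026 libraries at 125.9, 121.7 and 151.8. The groups overlapped, and the lowest value belonged to the mdx vehicle library that stood apart. Against wildtype, mdx vehicle gave a log2 fold change of -0.39 (SE 0.23, 95% interval -0.92 to 0.13, adjusted p = 0.506), and -0.15 without that library.

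Shmt1 and Shmt2 encode the cytosolic and the mitochondrial serine hydroxymethyltransferase. Shmt1 was at 15.1, 20.1 and 19.5 CPM in wildtype, 9.04, 11.1 and 8.59 in mdx vehicle, and 7.95, 6.65 and 5.30 in mdx GTx-026. No 2 of the groups overlapped, with wildtype highest and GTx-026 lowest. Shmt1 fell by 1.34 on the log2 scale in mdx GTx-026 against wildtype (SE 0.19, adjusted p = 0.0115), from 18.2 ± 2.70 to 6.63 ± 1.33 CPM (SD, n = 3). The call was lost without wildtype library 2 (adjusted p = 0.0593) or 3 (0.0677) and was kept under 15 of 17 alternative settings, with adjusted p from 0.00975 to 0.0677. Against wildtype, mdx vehicle differed by -0.86 (SE 0.19, unadjusted p = 0.00106, adjusted p = 0.119), which is past no threshold after adjustment. GTx-026 against mdx vehicle gave -0.48 (SE 0.19, 95% interval -0.90 to -0.06, unadjusted p = 0.0288, adjusted p = 0.9996), also not called. The authors' deposited table lists 2 Shmt1 records, with wildtype over mdx GTx-026 ratios of 2.69 and 2.41 and the authors' p-values of 0.00899 and 0.00149. Of the Shmt1 words, 3.37% also occur in Smcr8, which is in the table.

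Shmt2 overlapped between all 3 groups and was not called. It was at 26.4, 25.8 and 30.04 CPM in wildtype, 27.1, 31.9 and 27.1 in mdx vehicle, and 30.5, 33.3 and 28.2 in mdx GTx-026. The log2 fold change was 0.06 (SE 0.13, 95% interval -0.23 to 0.36, adjusted p = 0.857) in mdx vehicle and 0.16 (SE 0.13, interval -0.14 to 0.45, adjusted p = 0.720) in mdx GTx-026, both against wildtype. These intervals do not reach the difference measured for Shmt1 in either group. Whether the 2 genes differ in their response was not tested.

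**Figure D2:**
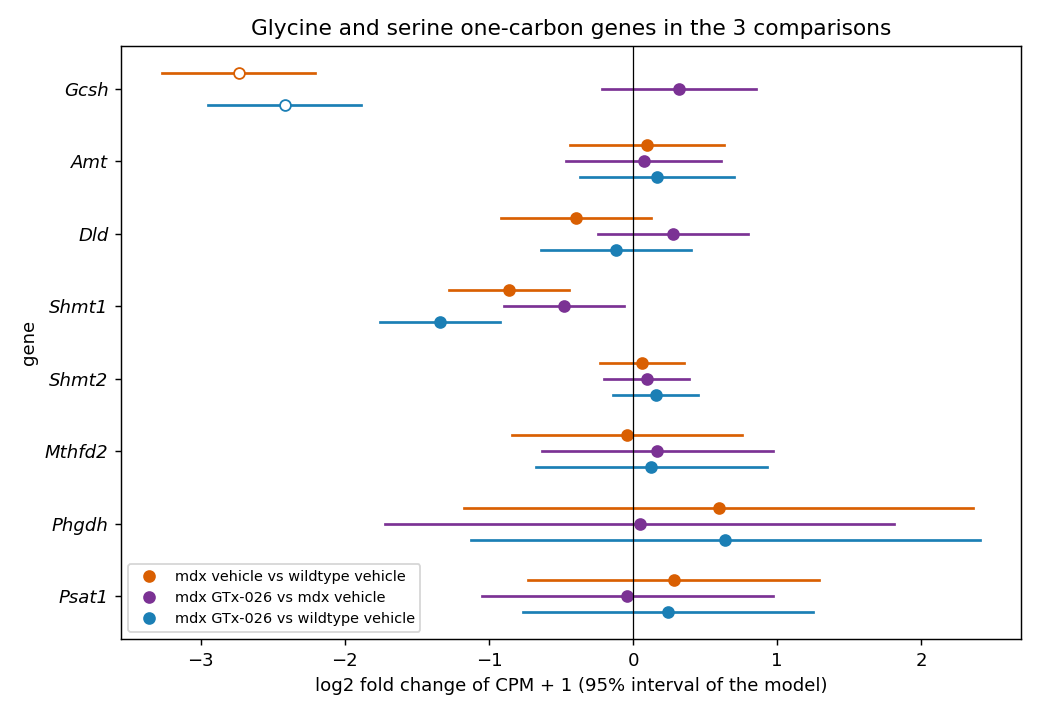
Log2 fold change of CPM + 1 of the 8 tested genes (one row per gene) in the 3 comparisons, with the model's 95% interval; open points are the Gcsh differences from wildtype, which chose the genes and carry no test. Gcsh at -2.74 and -2.42 and Shmt1 at -1.34 lie far to the left, and the intervals of Phgdh reach from -1.17 to 2.36 in mdx vehicle against wildtype.

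Mthfd2, Phgdh and Psat1 varied mainly from library to library. Mthfd2 encodes a mitochondrial dehydrogenase and cyclohydrolase that oxidises the carbon unit on folate. Its level was 10.7, 4.78 and 5.16 CPM in wildtype, 9.46, 3.42 and 7.30 in mdx vehicle, and 5.70, 7.72 and 8.31 in mdx GTx-026. Phgdh encodes phosphoglycerate dehydrogenase, the entry enzyme of serine synthesis. It was at 16.6, 2.12 and 2.33 CPM in wildtype, 15.6, 2.18 and 10.9 in mdx vehicle, and 4.76, 16.4 and 5.90 in mdx GTx-026. Psat1 encodes phosphoserine aminotransferase, the next enzyme of that route. It was at 6.86, 2.05 and 1.53 CPM in wildtype, 4.23, 2.21 and 5.48 in mdx vehicle, and 2.10, 5.57 and 3.92 in mdx GTx-026.

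All groups overlapped for these 3 genes, and the library with the highest Phgdh of each group was wildtype 1, mdx vehicle 1 and mdx GTx-026 2. The log2 fold change of Phgdh in mdx vehicle against wildtype was 0.59 (SE 0.79, 95% interval -1.17 to 2.36, adjusted p = 0.767). With 1 library left out it ran from 0.12, without mdx vehicle library 1, to 1.41, without wildtype library 1. Those of Psat1 and Mthfd2 were 0.28 (SE 0.45) and -0.04 (SE 0.36). Phgdh is uncertain as a single gene, because 38.3% of its words occur in the pseudogene Gm7901 and 19.9% in Gm9347, neither with a row in the table. Sfxn1, a mitochondrial serine transporter, was also highest in wildtype library 1, at 8.62 CPM against 1.85 and 1.24 in the other wildtype libraries. In mdx vehicle Sfxn1 was at 5.15, 1.65 and 6.81 CPM and in mdx GTx-026 at 2.92, 7.66 and 3.29.

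Markers of other cell types varied over the same libraries. The adipocyte markers (4 of 5 tested; Lep has no row) summed to 1741, 109.7 and 151.3 CPM in wildtype, 151.1, 107.2 and 847.2 in mdx vehicle, and 217.5, 961.1 and 339.1 in mdx GTx-026. They were highest in the wildtype and the GTx-026 library with the highest Phgdh. In mdx vehicle they were highest in library 3, while library 1 had the highest lymphoid sum (2 of 9 tested), 147.6 CPM against 4.00 to 50.9 elsewhere. The 5 Schwann cell markers summed to 21.6 to 75.7 CPM and peaked in the same libraries as the adipocyte markers: wildtype 1 (75.7), mdx vehicle 3 (53.6) and GTx-026 2 (60.6). GTx-026 library 1 was close to that last value, at 58.2 CPM, although its adipocyte sum was the lowest of its group. The macrophage sum was 428.2, 122.5 and 408.3 CPM in mdx vehicle, highest in library 1. In wildtype it was highest in library 2 (144.7) and in GTx-026 in library 3 (477). The part of these cells in the levels of Phgdh, Psat1, Mthfd2 and Sfxn1 was not tested.

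**Figure D3:**
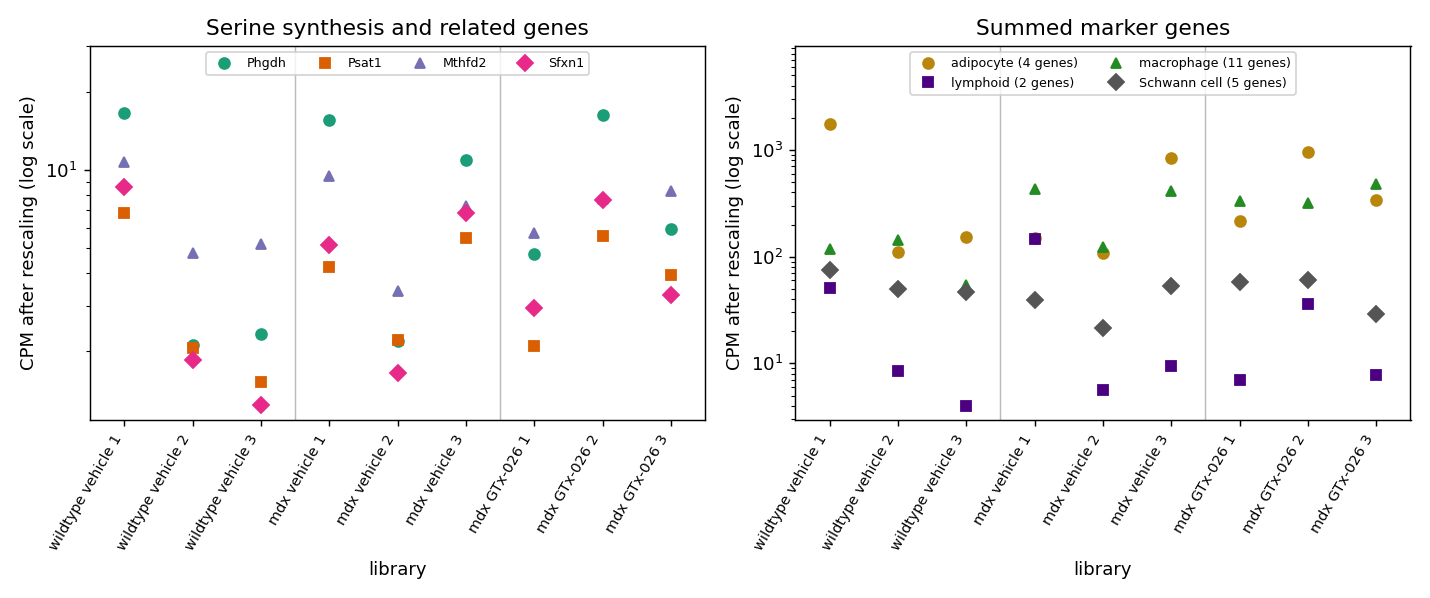
Left, CPM after rescaling (log scale) of Phgdh, Psat1, Mthfd2 and Sfxn1 in each library; right, summed CPM (log scale) of the tested markers of 4 cell types, with grey lines between the groups. Phgdh ranges from 2.12 to 16.6 CPM within wildtype alone, where the adipocyte sum ranges from 109.7 to 1741 CPM.

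Over the members apart from Gcsh, limma called 0 of 7 in mdx vehicle against wildtype, where 0.338% of all tested genes were called, and 1 of the 7, Shmt1, had an unadjusted p under 0.05, beside 12.7% of all genes. Of all 8 members limma called 0 in mdx GTx-026 against mdx vehicle, where the background was 0.013%, again with Shmt1 alone under 0.05 before adjustment, beside 3.17% of all genes. In mdx GTx-026 against wildtype it called 1 of 7, Shmt1, against a background of 1.48%, or 0.429% counted for lower genes, and 12.5% of all genes had an unadjusted p under 0.05. The comparisons share groups, so these counts are not independent of each other. Groups that did not overlap were no rare event: this held for 16.5% of all tested genes in mdx vehicle against wildtype, 6.8% between the mdx groups and 20.8% in mdx GTx-026 against wildtype. It held for Shmt1 in all 3 and for no other member apart from Gcsh.

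Levels were compared between genes per kilobase, with the highest record of a gene divided by its longest protein-coding transcript in GENCODE M21. In wildtype muscle the order was Dld at 56.9 ± 7.79 CPM per kb, Gcsh at 28.1 ± 2.63, Shmt2 at 6.17 ± 0.392, Phgdh at 3.70 ± 4.37 and Shmt1 at 3.49 ± 0.684. Mthfd2 at 1.21 ± 0.710, Psat1 at 0.683 ± 0.590 and Amt at 0.666 ± 0.216 came last (SD, n = 3). The place of Phgdh beside Shmt2 and Shmt1 lay within its spread, while Shmt2 and Shmt1 lay farther apart than theirs, and the last 3 were within their spread. In mdx vehicle Gcsh stood at 3.74 ± 1.29 CPM per kb, below Dld at 44.7 ± 15.3 and Shmt2 at 6.29 ± 0.603, and in mdx GTx-026 at 4.73 ± 0.978. Gcsh thus went from the second place in wildtype to a level within the spread of Phgdh, at 5.04 ± 3.59 in mdx vehicle.

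The genes whose level ran most like Gcsh over the 9 libraries were named by Pearson correlation among 10342 genes with a mean of 5 CPM or more, as a description. They included Stk40 (r = 0.995), Fam63b (0.978), Tdg (0.974) and Dmd (0.968). The points fall into a wildtype and an mdx cluster. A gene lower in mdx thus scores high where its gap is wide beside its spread within the groups, even if the gap is small, as for Fam63b. Stk40, a gene for a serine/threonine kinase-like protein, was at 121.9 to 135.4 CPM in wildtype and 45.9 to 68.3 in the mdx libraries. Tdg, which encodes thymine DNA glycosylase, was at 17.5 to 22.5 and 4.26 to 8.05 CPM. Fam63b was at 24.2 to 25.5 and 17.7 to 19.7 CPM.

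None of the tested genes near Gcsh on chromosome 8 was called in any comparison. GENCODE M21 places 15 other gene starts within 500 kb of the Gcsh start, and 6 of these genes were tested: Cdyl2, Cmc2, Atmin, Pkd1l2, Bco1 and Cmip. In mdx vehicle against wildtype limma gave 1 of them, Cdyl2, an unadjusted p under 0.05 (0.0241), beside 12.7% of all genes. In mdx GTx-026 against wildtype Cdyl2 (0.0118) and Bco1 (0.0255) had such a p, beside 12.5%. Bco1 was low, at 0.473 to 1.195 CPM over the 9 libraries, and Pkd1l2 lower, at 0.384 to 0.655 CPM. At such levels the pseudocount of 1 CPM understates changes. In mdx GTx-026 the mean of Pkd1l2 was 0.727 times that of wildtype and that of Bco1 1.94 times, beside log2 fold changes of -0.15 and 0.40. Atmin, which encodes an ATM-interacting protein and starts 50.1 kb away, was at 33.8, 45.8 and 40.2 CPM in wildtype, 30.5, 34.2 and 33.2 in mdx vehicle, and 40.6, 30.6 and 35.1 in mdx GTx-026. The log2 fold changes in mdx vehicle ran from -0.31 for Cmc2, a gene for a mitochondrial assembly protein, to 0.42 for Cdyl2 (SE 0.16, adjusted p = 0.329). In mdx GTx-026 against wildtype they ran from -0.17 for Atmin to 0.49 for Cdyl2.

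**Figure D4:**
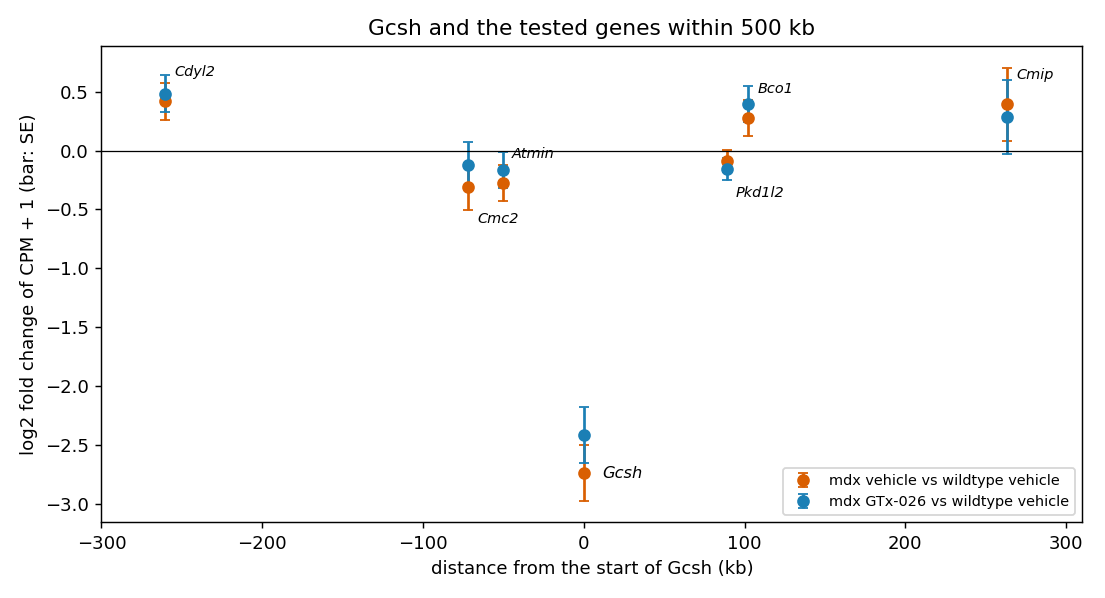
Log2 fold change of CPM + 1 against wildtype (y axis; bars are SE) of Gcsh and the 6 tested genes within 500 kb, by distance of the gene starts (x axis, kb). Gcsh lies at -2.74 and -2.42 and the 6 neighbours between -0.31 and 0.49.

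Among the other genes of glycine and serine metabolism Gcat was the single call. Of 23 listed, 17 were tested. In mdx vehicle against wildtype 11 had a higher and 6 a lower mean log2 value, with a list median of 0.15 beside 0.01 for all genes (0.30 beside 0.15 under the deposited scaling, and 0.07 without mdx vehicle library 1). Limma called none, with 2 higher and 1 lower at an unadjusted p under 0.05, beside 12.7% of all genes in either direction. Gcat encodes glycine C-acetyltransferase, which completes the breakdown of threonine to glycine. It was at 13.1, 13.1 and 14.3 CPM in wildtype, 7.38, 8.79 and 8.37 in mdx vehicle, and 7.50, 6.65 and 7.00 in mdx GTx-026. Gcat fell by 0.85 on that scale in mdx GTx-026 against wildtype (SE 0.14, adjusted p = 0.0190). The list median there was 0.05, and Gcat was the sole call of these 17, beside 1.48% of all genes called. It was not called in mdx vehicle, at -0.66 (SE 0.14, adjusted p = 0.110). The groups did not overlap there, as for 16.5% of all tested genes. The Gcat call was lost under the deposited scaling (-0.75, adjusted p = 0.0714), under scaling to the listed total (-0.74, 0.0801), and without any 1 of the wildtype or GTx-026 libraries, at adjusted p of up to 0.115. Of the Gcat words 10.8% occur in its neighbour Galr3, which has no row.

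Psph, the last enzyme of serine synthesis, was at 14.02 ± 0.664 CPM in wildtype, 12.2 ± 1.25 in mdx vehicle and 13.7 ± 1.80 in mdx GTx-026 (SD, n = 3). Slc25a38, a mitochondrial glycine carrier, was at 14.3 ± 1.72, 13.4 ± 1.5 and 14.9 ± 1.82 CPM. Neither was called. The top of the list in the comparisons with wildtype was held by the genes of creatine synthesis, which uses glycine, and these were picked after their values were seen. Gamt, the methyltransferase of that route, was at 25.8, 29.4 and 19.3 CPM in wildtype, 54.6, 40.7 and 73.4 in mdx vehicle, and 64.7, 71.6 and 34.2 in mdx GTx-026. Gatm, the amidinotransferase that joins glycine, was at 5.71 to 6.18 CPM in wildtype, 7.76 to 20.2 in mdx vehicle and 12.6 to 20.1 in mdx GTx-026. Every mdx library lay above every wildtype library for both genes. Groups did not overlap, in either direction, for 16.5% of all tested genes in mdx vehicle against wildtype and 20.8% in mdx GTx-026 against wildtype. Neither gene was called, with log2 fold changes in mdx GTx-026 against wildtype of 1.11 (SE 0.30, adjusted p = 0.131) and 1.29 (SE 0.31, adjusted p = 0.0835).

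In the folate list 19 of 20 genes were tested, 12 higher and 7 lower in mdx vehicle against wildtype, with a median of 0.04. The direction turned without mdx vehicle library 1, to 8 higher and 11 lower with a median of -0.036, beside -0.002 for all genes. Under the deposited scaling 14 were higher and 5 lower with a median of 0.18, beside 0.15 for all genes. Limma called none in any comparison. At an unadjusted p under 0.05, 2 were lower in mdx vehicle against wildtype, beside 12.7% of all genes. At that threshold 1 was higher in mdx GTx-026 against mdx vehicle, beside 3.17%. Against wildtype 1 was higher and 1 lower in mdx GTx-026, beside 12.5%. Mthfd1, the cytosolic enzyme that interconverts folate carbon units, was at 49.0 ± 9.43 CPM in wildtype, 39.2 ± 7.51 in mdx vehicle and 38.5 ± 5.25 in mdx GTx-026 (SD, n = 3). Aldh1l2, a mitochondrial formyltetrahydrofolate dehydrogenase, was at 7.71 ± 2.74, 5.67 ± 2.68 and 5.14 ± 0.749 CPM. Slc25a32, a mitochondrial folate carrier, was at 3.41 ± 0.436, 3.11 ± 0.224 and 3.24 ± 1.10 CPM.

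The lowest gene of the folate list, Aldh1l1, the cytosolic counterpart of Aldh1l2, was picked after its values were seen. It was at 76.4, 10.1 and 87.4 CPM in wildtype, 6.52, 8.23 and 15.4 in mdx vehicle, and 6.82, 9.88 and 7.00 in mdx GTx-026. Wildtype library 2 lay between the highest mdx vehicle library and the other mdx libraries, so wildtype overlapped mdx vehicle but not mdx GTx-026. In the latter comparison 20.8% of all tested genes had no overlap. The log2 fold change was -2.02 (SE 0.68, adjusted p = 0.285) in mdx vehicle and -2.27 (SE 0.68, adjusted p = 0.175) in mdx GTx-026. In the methionine cycle list 8 of 12 genes were tested and none was called by limma, with medians of -0.15 in mdx vehicle and 0.04 in mdx GTx-026 against wildtype. The former was 0.014 under the deposited scaling, beside 0.15 for all genes, and 0.023 with scaling to the listed total, beside 0.16. It stayed below the median of all genes under both, and was -0.080 without mdx vehicle library 1. The latter was 0.15 under either scaling, beside 0.093 and 0.095 for all genes. At an unadjusted p under 0.05 the list had 0 genes in mdx vehicle, beside 12.7% of all genes. In mdx GTx-026 it had 2 higher and 1 lower, beside 12.5%. Ahcy, the S-adenosylhomocysteine hydrolase, was at 39.3 ± 2.26 CPM in wildtype, 36.6 ± 2.86 in mdx vehicle and 48.4 ± 5.08 in mdx GTx-026. Between the mdx groups limma gave it an unadjusted p of 0.0121 (adjusted p = 0.9996). It was the 1 gene of the 8 under 0.05 there, beside 3.17% of all genes. Mat2a, the S-adenosylmethionine synthetase of most tissues outside the liver, was at 157.6 ± 36.4 CPM in wildtype, 185.7 ± 18.4 in mdx vehicle and 229.0 ± 43.7 in mdx GTx-026.

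The H protein also takes part in lipoate synthesis, and the list of lipoate genes and lipoyl-carrying complexes had 22 of 24 genes tested. In mdx vehicle against wildtype 21 of the 22 had a lower mean log2 value, with a median of -0.29, beside 48.9% of all tested genes below 0. None was called by limma, and 5 were lower at an unadjusted p under 0.05, beside 12.7% of all genes in either direction. In the same comparison 7 of the 8 skeletal fibre markers were lower, with a median of -0.44, 0 called by limma and 0 at an unadjusted p under 0.05, and their part in the lipoate genes was not tested. Under the deposited scaling 16 of the 22 lipoate genes were lower, beside 4443 of 15372 genes. Their median was -0.12, beside 0.15 for all genes. Without mdx vehicle library 1 the count was 18 and the median -0.10, beside -0.002 for all genes. Lias, the lipoyl synthase, was at 40.1 ± 3.60 CPM in wildtype, 31.8 ± 4.05 in mdx vehicle and 35.3 ± 1.66 in mdx GTx-026 (SD, n = 3). Dbt, the lipoyl-carrying core of the branched-chain complex, was at 35.7 ± 3.12, 26.9 ± 1.82 and 23.2 ± 4.09 CPM. Ogdh, of the oxoglutarate complex, was at 702.0, 960.6 and 1120 CPM in wildtype and at 494.5, 904.1 and 829.8 in mdx vehicle, with the lowest value again in library 1. Nfu1, which builds iron-sulphur clusters for lipoyl synthase, and Dlat and Dlst, the cores of the pyruvate and oxoglutarate complexes, had log2 fold changes of -0.16, -0.39 and -0.38 in mdx vehicle, none called.

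With GTx-026 against mdx vehicle 19 of the 22 lipoate genes had a higher mean log2 value, with a median of 0.15, beside 51.1% of all genes above 0. Limma called none and found none with an unadjusted p under 0.05, beside 3.17% of all genes. The median was 0.093 under the deposited scaling, beside -0.05 for all genes. Without mdx vehicle library 1 the count was 15 and the median 0.060, beside 0.008 for all genes. Of the skeletal fibre markers 7 of 8 were higher, with a median of 0.10. Both comparisons rest on the same mdx vehicle libraries, so a low value in these enters both with opposite sign. In mdx GTx-026 against wildtype 17 of 22 lipoate genes were lower, beside 49.6% of all genes, with a median of -0.09. Under the deposited scaling 11 of 22 were lower, beside 5310 of 15372 genes. The median was then 0.01, beside 0.09 for all genes.

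Serine synthesis genes are known targets of the transcription factor ATF4, and 30 of 32 listed ATF4-related genes were tested. In mdx vehicle against wildtype 12 were higher and 18 lower, with a median of -0.12, beside 0.01 for all genes. None was called by limma, with 2 higher and 4 lower at an unadjusted p under 0.05, beside 12.7% of all genes. The counts were 16 higher and 14 lower (median 0.038, beside 0.15 for all genes) under the deposited scaling. With scaling to the listed total they were 18 higher and 12 lower (median 0.046, beside 0.16). Without mdx vehicle library 1 the median was -0.051, beside -0.002. In each of these settings the list median in mdx vehicle against wildtype lay below that of all genes. With GTx-026 against mdx vehicle 21 were higher and 9 lower, with a median of 0.12. Under the deposited scaling the median was 0.056, beside -0.05 for all genes. Limma again called none, with 2 higher and 2 lower at an unadjusted p under 0.05, beside 3.17% of all genes. In mdx GTx-026 against wildtype 18 were higher and 12 lower, with a median of 0.064, above the 0.002 for all genes. Under the deposited scaling that median was 0.17, beside 0.093. Limma called none there either, with 2 higher and 2 lower at an unadjusted p under 0.05, beside 12.5% of all genes. Atf4 itself was at 164.9 ± 19.2 CPM in wildtype, 156.4 ± 26.6 in mdx vehicle and 187.5 ± 16.2 in mdx GTx-026 (SD, n = 3). Asns, asparagine synthetase, was at 1.81 ± 1.11, 2.10 ± 1.42 and 3.18 ± 1.23 CPM. Aldh18a1, an enzyme of proline synthesis, was at 3.93 ± 0.299, 5.21 ± 1.87 and 5.15 ± 0.707 CPM.

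**Figure D5:**
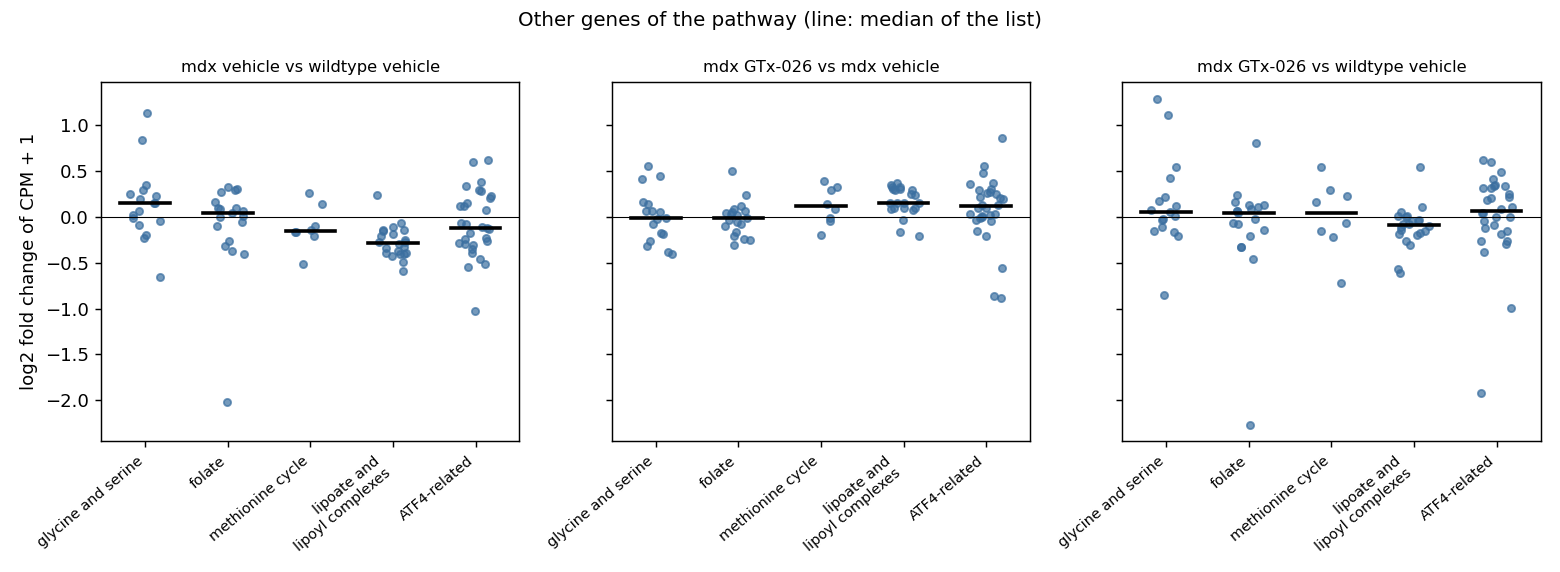
Log2 fold change of CPM + 1 (y axis) of each tested gene in 5 pathway lists (x axis) in the 3 comparisons; points are spread sideways at random and the black line is the list median. The lipoate median is -0.29 in mdx vehicle against wildtype and 0.15 in mdx GTx-026 against mdx vehicle, and the lowest point of the folate list is Aldh1l1 at -2.02 and -2.27 in the comparisons with wildtype.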

How the data were processed

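Polyadenylated RNA from 9 gastrocnemius samples was sequenced on an Ion Torrent Proton after library amplification, per the labels' protocols. The submitters' processing notes name the build GRCm38.p3 and DESeq2 1.6.3, HTSeq 0.6.1p1, SAMtools 0.1.19, Bowtie2 2.2.4 and TopHat2 2.0.13, with no roles; not given in the sources used here are annotation and strand. The authors' deposited signal per sequence record behaves as reads times a factor: below 1000, all lay within 0.1 read of whole multiples of a single step per library, from which listed reads were estimated (25.1 M to 38.0 M per library). A count of reads recovered in this way was not accepted as raw counts, so the plan's option for scaled values was used and no count model was run. For each pair of groups, per the file headers, there is also a ratio of means and a p-value by the authors. The column names give a group and a number, so columns were assigned to groups only and numbers pair nothing.

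The members, gene lists and tests were chosen with earlier results of these data known. Records above 0 in all 9 libraries were summed by symbol; a read shared by near-copy records of 1 gene may be summed repeatedly. Left out were 4 records with no symbol (0.000646% of all signal). Libraries were rescaled by an unweighted trimmed mean of log ratios (30% trimmed on the ratio, 5% on the level), with factors of 0.874 to 1.30. limma 3.58.1 in R 4.3.3 was fitted to log2(CPM + 1) of all 9 libraries, with a trended prior variance, 6 residual and 3.54 prior degrees of freedom. P-values are two-sided, Benjamini-Hochberg adjusted over 15372 genes, and the pseudocount of 1 CPM understates changes of low genes. The fit was tested on simulated data. At the lowest depth 1 CPM stands for 25.1 reads. Genes named beside the members were those called in 5 pathway lists (Gcat), 18 list genes fixed by name (Gcat among them), the 5 genes most like Gcsh at 5 CPM or more (1 of them is not reported here), and tested genes within 500 kb of it; 3 list genes named later are marked in the text. Alternatives were the deposited scaling, scaling to the listed total, pseudocounts of 0.1 and 5 CPM, a minimum mean of 1 CPM, all records or the highest record of a gene, the compared groups alone, and each library left out in turn. Promoter sequences are from RefSeq (GRCm38.p6), and positions from GENCODE M21 (GRCm38).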

Additional observations from a re-analysis of the deposited data

How the results depend on the processing

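With 3 libraries a group, calls over the whole table depended on single libraries, and the cause was not tested. Genes called in mdx vehicle against wildtype numbered 52, 5 with the compared groups alone, and 5 to 93 with 1 library left out (24, 9 and 5 without wildtype 1, 2 and 3, 93 and 9 without mdx vehicle 2 and 3, and 34, 14 and 30 without GTx-026 1, 2 and 3). In mdx GTx-026 against wildtype they numbered 227, 421 with the compared groups alone, and 45 to 368 with 1 left out (62 and 45 without wildtype 2 and 3, 368 without mdx vehicle 1, and 56, 82 and 74 without GTx-026 1, 2 and 3). Between the mdx groups limma called 2, 4 under the deposited scaling or scaling to the listed total, 1 with a pseudocount of 5 CPM or the compared groups alone, and 0 to 2 with 1 left out; 875 and 447 genes had an unadjusted p under 0.05 without mdx vehicle 3 and GTx-026 1, which gave 0. Members called in mdx GTx-026 against wildtype numbered 0 or 1 with 1 left out. Under the deposited scaling the median of all genes in mdx vehicle against wildtype moved from 0.01 to 0.15, and the share of calls that were higher from 55.8% (29 of 52) to 71.4% (30 of 42), or 73.7% (28 of 38) with scaling to the listed total. In mdx GTx-026 against wildtype that share was 70.9% (161 of 227), and 81.3% (187 of 230) with scaling to the listed total.

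Shmt1 and Gcat kept their sign in the 3 comparisons under all 17 alternatives, as did Gcsh between the mdx groups. Against wildtype the Gcsh values chose the genes, so their range is a description and no support for the difference. It ran from -2.94 to -2.14 in mdx vehicle and from -2.57 to -1.95 in mdx GTx-026, with the values nearest 0 at a pseudocount of 5 CPM. Signs changed for differences near 0: Mthfd2 in mdx vehicle (0.11 and 0.12 under the other 2 scalings, 0.019 with the highest record), and, between the mdx groups, Phgdh (-0.018 and -0.025 under those scalings, -0.016 with a pseudocount of 5), Amt (-0.062) and Psat1 (0.028), both with the highest record. With 1 library left out the ranges in mdx vehicle were -0.30 to 0.32 for Mthfd2, -0.050 to 0.25 for Amt, -0.036 to 0.78 for Psat1 and -0.014 to 0.13 for Shmt2. Between the mdx groups they were -0.33 to 0.25 for Psat1, -0.19 to 0.43 for Mthfd2, -0.67 to 0.52 for Phgdh, -0.17 to 0.11 for Mthfd1 and -0.12 to 0.27 for Amt. In mdx GTx-026 against wildtype they were -0.059 to 0.45 for Mthfd2, -0.076 to 0.74 for Psat1 and -0.023 to 0.36 for Amt. No paired analysis was possible because the labels number the samples without shared numbers between groups. Genes near 2 CPM rest on few reads, and values listed at 0 are not tested.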
